A study of Mus musculus with 19 samples.

Results

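The transcripts of 4 epidermal connexins, Gja1, Gjb2, Gjb5 and Gjb6, were followed by bulk RNA sequencing in 15 skin tumours of mice and in 4 normal skin samples. The members were chosen by name, as the genes of the deposited count table whose Ensembl identifiers map to these symbols, and all 4 were present among 34807 genes. The tumours were 6 Ivl:BRAFV600E, 5 K5:BRAFV600E and 4 K14:BRAFV600E samples, and the 4 normal skin samples came from wild-type littermates. In all tumour groups the BRAFV600E allele, an activated kinase of the MAPK pathway, was switched on between 7 and 20 weeks of age by a tamoxifen-inducible Cre. Cre was driven by the Ivl promoter, which is active in keratinocytes committed to differentiation, or by the Krt5 or Krt14 promoter, which mark basal keratinocytes. The mice were on a C57BL/6J background and every sample is labelled female. Tamoxifen was applied to shaved back skin in the Ivl model and 4-hydroxytamoxifen in the K5 and K14 models. Ivl tumours arose at several body sites (back, paws, ears and lips) whereas K5 and K14 tumours arose on the back. The paper also reports a longer time from induction to tumour onset in the Ivl model than in the K5 and K14 models. The site, the inducer, the time to onset and the cell of origin cannot be told apart. RNA was taken from whole tissue, and in such bulk samples fewer cells of a type and less RNA per cell cannot be told apart. The labels do not say whether 2 tumours could come from the same mouse, so p-values measure only the spread between these samples. K5 and K14 tumours were merged into a K5/K14 group of 9 for the comparisons with Ivl tumours and with skin.

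Connexins are membrane proteins that assemble as a ring into a hemichannel, and hemichannels of neighbouring cells dock to form a gap junction through which ions and small metabolites pass. Keratinocytes use several of them at the same time. Gja1 is the most widespread connexin of the body and is made by basal and spinous keratinocytes, by fibroblasts and by vessel cells. Gjb2 and Gjb6 are sparse in resting interfollicular epidermis, are abundant in the supporting cells of the inner ear, and are known to increase at wound edges and in psoriatic plaques, and inherited variants of the human genes cause deafness and thickening of palm and sole skin. Gjb5 is a connexin of stratified epithelia.

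On GRCm38, Gja1 (ENSMUSG00000050953) lies at chr10:56377330-56402513 on the plus strand, Gjb2 (ENSMUSG00000046352) at chr14:57098600-57104702 on the minus strand, Gjb6 (ENSMUSG00000040055) at chr14:57123303-57133611 on the minus strand and Gjb5 (ENSMUSG00000042357) at chr4:127354809-127358181 on the minus strand. Gjb2 and Gjb6 are neighbours with 18600 bases between them. The coding sequence of each member sits in 1 exon, and no other annotated gene overlaps any of the 4. The 150 bases before the RefSeq start of each gene (GRCm38.p6, written 5′ to 3′ on the gene's own strand) are shown because the neighbours Gjb2 and Gjb6 also varied together over the tumours, as described below. Capitals mark matches to 5 short motifs searched on either strand. These were the AP-1 element (TGANTCA), the GC box of Sp factors (GGGCGG), a core bound by ETS factors (CCGGAAG), the box bound by NF-Y that is known by its letters CCAAT, and the TATA box of the basal machinery (TATAAA). The motifs do not overlap in these stretches.
Gja1, chr10:56377150-56377299: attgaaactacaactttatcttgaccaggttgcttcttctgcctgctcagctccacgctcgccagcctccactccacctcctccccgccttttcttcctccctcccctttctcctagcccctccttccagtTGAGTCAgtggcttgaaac
Gjb2, chr14:57104703-57104852: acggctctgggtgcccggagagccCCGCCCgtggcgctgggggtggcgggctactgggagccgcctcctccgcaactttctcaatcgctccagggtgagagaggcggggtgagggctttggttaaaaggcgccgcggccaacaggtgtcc
Gjb6, chr14:57133612-57133761: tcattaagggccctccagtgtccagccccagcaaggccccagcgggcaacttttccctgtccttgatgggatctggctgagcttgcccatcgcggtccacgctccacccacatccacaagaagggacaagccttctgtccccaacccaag
Gjb5, chr4:127358165-127358314: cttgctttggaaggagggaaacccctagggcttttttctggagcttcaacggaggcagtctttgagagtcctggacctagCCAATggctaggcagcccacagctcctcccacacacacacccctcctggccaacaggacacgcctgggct

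The motif search covered 250 bases before the start. Gja1 held an AP-1 match 19 bases before its start, a motif found in 6.75% of 32851 mouse promoters. Gjb2 held GC boxes at 211 and 126 bases before its start (32.7% of promoters hold this motif), and its 250 bases were 69.2% G and C, against a median of 52.4% over all promoters with quartiles of 45.2% and 61.2%. Gjb5 held CCAAT 70 bases (33.8% of promoters) and TATAAA 243 bases (12.4%) before its start. None of the motifs was found before Gjb6, whose 250 bases were 56.8% G and C, and the ETS core, found in 6.91% of all promoters, was before none of the 4. Gja1 stood at 50.0% and Gjb5 at 54.4% G and C.

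Total counts were 45715309 to 72609771 per library. Levels are given as CPM, counts relative to the library size after scaling by the trimmed mean of M values. The scaling factors were 1.427 to 1.6591 in skin libraries and 0.8063 to 1.1486 in tumours. Scaling therefore lowered the skin levels relative to total counts and raised those of most tumours. Small rises over skin depend on it, and no test used total counts alone. The deposited counts had been adjusted by the authors for a sequencing batch, and Ivl 1, Ivl 2, Ivl 3 and K5 1 carry its trace: for 96.6% of 13954 genes their mean differed by less than 0.1 log2 from that of the 15 others, against at most 64.1% for any other set of 4. The members showed the same feature, for example Gja1 at 826.2 CPM in the 4 and 823.8 CPM in the other 15, and Gjb6 at 328.7 and 342.1 CPM (scaled by total count). The comparisons of the members are therefore also given within the 15 other libraries, which leave 3 Ivl, 4 K5, 4 K14 and 4 skin samples. The labels do not say which library belonged to which batch.

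Gjb2 and Gjb6, the neighbouring pair on chromosome 14, rose in both tumour groups over normal skin, by 5.83-fold and 9.42-fold in Ivl tumours and by 8.46-fold and 18.3-fold in K5/K14 tumours. Without skin library 1 the folds of Gjb2 were 9.25 and 13.5, and without skin library 2 they were 4.42 and 6.48. Within the 15 libraries outside the batch-trace set, Gjb2 was 7.65-fold higher in Ivl and 8.34-fold higher in K5/K14 tumours. Gjb6 was 13.6-fold higher there in Ivl tumours. Over all 19 libraries Gja1 rose in K5/K14 tumours by 1.80-fold. Gjb5 was 1.75-fold higher there, a call that was lost within the 15 libraries, and neither gene passed the test in Ivl tumours. Both rises depend on the scaling of the skin libraries given above, and no fit used total counts alone. Relative to epithelial genes of the same library, Gjb2 and Gjb6 stayed higher on average in tumours than in skin, and Gja1 and Gjb5 were lower on average. On that scale, over all 19 libraries, only Gjb6 in K5/K14 tumours and Gjb5 in Ivl tumours did not overlap skin. Within the 15 libraries Gjb6 (higher) and Gja1 (lower) in Ivl tumours did not overlap skin either. The share of all genes without overlap on that scale was not counted. None of the 4 passed the test, adjusted over all genes, between Ivl and K5/K14 tumours or between K5 and K14 tumours.

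In normal skin, Gjb2 stood at 576.3, 32.8, 301.3 and 176.4 CPM in libraries 1 to 4. In Ivl tumours it ran from 409.7 to 2293 CPM with a median of 1899 CPM. In the K5 tumours the values were 2569, 1707, 2334, 1913 and 2973 CPM, and in the K14 tumours 1388, 1468, 3257 and 3086 CPM. All 9 K5/K14 tumours were above every skin library, whereas Ivl 1, the lowest tumour, lay below skin library 1. Ivl 3 at 742.0 CPM was the next lowest tumour, and both belong to the 4 libraries with the batch trace. The skin libraries themselves spanned a wide range, with library 2 far below the others.

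Gjb6 stood at 57.9, 12.97, 31.3 and 27.5 CPM in skin. It ran from 108.4 to 477.6 CPM with a median of 308.6 CPM in Ivl tumours. The K5 values were 902.7, 347.7, 585.2, 551.7 and 615.7 CPM, and the K14 values 360.0, 406.7, 848.7 and 735.6 CPM. Every tumour lay above every skin library. The 3 Ivl tumours of the batch-trace set (155.7, 249.8 and 108.4 CPM) were the lowest tumours, and Ivl 4, 5 and 6 (474.5, 477.6 and 367.4 CPM) lay inside the K5/K14 range.

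Gja1 was already abundant in skin, at 992.9, 275.9, 460.2 and 539.0 CPM. It lay between 638.8 and 918.7 CPM in Ivl tumours, with a median of 746.1 CPM. The K5 tumours held 1281, 1019, 927.6, 710.6 and 1230 CPM, and the K14 tumours 839.9, 1015, 1039 and 1099 CPM. Skin library 1 lay inside the tumour range, above all 6 Ivl tumours, whereas the other 3 skin libraries were below every tumour. The same library was the highest of the skin samples for Gjb2 and Gjb6 and the lowest for Gjb5.

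Gjb5 was the weakest of the 4. It stood at 14.4, 22.9, 20.6 and 19.9 CPM in skin and at 18.9 to 26.2 CPM, with a median of 23.4 CPM, in Ivl tumours. The K5 values were 47.0, 68.3, 25.7, 19.5 and 18.9 CPM, and the K14 values 33.7, 51.9, 19.8 and 21.0 CPM. K5 1, K5 2, K14 1 and K14 2 stood above all other libraries, and the remaining K5/K14 tumours were within or close to the skin range.

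**Figure D1:**
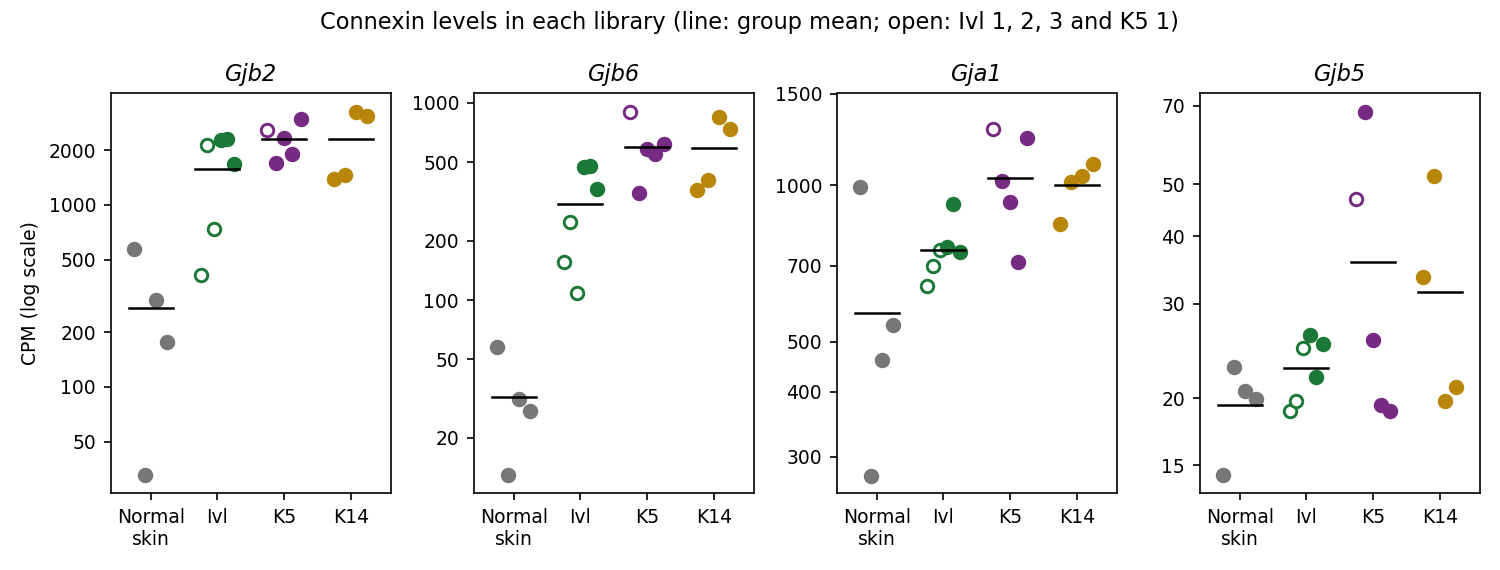
Level of each connexin in CPM on a log axis, 1 point per library, with a line at the group mean and open points for Ivl 1, 2, 3 and K5 1. Every tumour lies above every skin library for Gjb6, all K5 and K14 tumours do for Gjb2, and the groups overlap for Gja1 and Gjb5.

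Against normal skin, Gjb2 was 2.54 ± 0.60 (log2 fold change ± SE) higher in Ivl tumours (edgeR quasi-likelihood test, adjusted p = 0.00294) and 3.08 ± 0.60 higher in K5/K14 tumours (adjusted p = 0.000342). Gjb6 was 3.24 ± 0.48 higher in Ivl tumours (adjusted p = 4.41e-05) and 4.20 ± 0.50 higher in K5/K14 tumours (adjusted p = 2.97e-06), the largest difference of the 4 members in both comparisons. Both calls held in both comparisons within the 15 libraries, where Gjb2 was 2.94 ± 0.63 and 3.06 ± 0.57 higher and Gjb6 3.76 ± 0.42 and 4.10 ± 0.40 higher, in Ivl and K5/K14 tumours in turn. Leaving out 1 library gave Gjb2 differences of 2.15 to 3.21 in Ivl and 2.70 to 3.76 in K5/K14 tumours. They were highest without skin library 1 and lowest without skin library 2, and the calls held. Both comparisons share the 4 skin libraries.

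Gja1 was 0.84 ± 0.24 higher in K5/K14 tumours than in skin (edgeR, adjusted p = 0.0050), and 0.80 ± 0.25 higher within the 15 libraries (adjusted p = 0.0108). In Ivl tumours the difference from skin was 0.41 ± 0.25 (adjusted p = 0.183), and 0.51 ± 0.30 within the 15 libraries (adjusted p = 0.154). This value turned on the skin libraries. Without skin library 1 it was 0.81 (adjusted p = 0.00547) and passed the test, and over all fits that left out 1 library it ran from 0.16 to 0.81. Whether the change from skin differed between Ivl and K5/K14 tumours is given by the direct comparison of the tumours below, in which it did not pass the test.

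Gjb5 was 0.80 ± 0.31 higher in K5/K14 tumours than in skin (edgeR, adjusted p = 0.0308), a call that was lost within the 15 libraries (0.73 ± 0.34, adjusted p = 0.0694). It was also lost without K14 1, K14 2, K5 2 or skin library 1, 3 or 4, each in turn, with an adjusted p of 0.0518 to 0.0985 and differences of 0.61 to 0.83. In Ivl tumours Gjb5 differed from skin by 0.23 ± 0.32 (adjusted p = 0.562), and by 0.33 ± 0.41 within the 15 libraries (adjusted p = 0.501).

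Counted together, 2 of 4 members were called higher in Ivl tumours, where 20.4% of 32031 genes tested were called higher, and 4 of 4 in K5/K14 tumours, where 23.2% were. Within the 15 libraries the counts were 2 and 3 of 4, against 22.2% and 23.9% of 31971 genes. Every library was higher than every skin library for 1 member in Ivl tumours (13.2% of all genes) and for 2 in K5/K14 tumours (16.7%). Within the 15 libraries this held for Gjb2 and Gjb6 in both tumour groups, with 22.3% and 17.3% of all genes doing so in Ivl and K5/K14 tumours. The median log2 difference of the 4 members was 1.48 in Ivl and 1.96 in K5/K14 tumours, beside -0.46 and -0.60 over all genes tested. With size factors in place of the trimmed mean, the medians over all genes moved to -0.59 and -0.71, and each member kept its direction against skin.

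Between the tumour groups, Gjb6 was 0.96 ± 0.35 lower in Ivl than in K5/K14 tumours (log2, edgeR, adjusted p = 0.129), Gjb5 0.57 ± 0.27 lower (adjusted p = 0.220), Gjb2 0.54 ± 0.45 lower (adjusted p = 0.521) and Gja1 0.44 ± 0.20 lower (adjusted p = 0.216). None was called after adjustment over all genes, where 2.36% of genes were called in either direction. Before adjustment p was 0.0131 for Gjb6, 0.0412 for Gja1, 0.0432 for Gjb5 and 0.246 for Gjb2 (edgeR). Within the 15 libraries the differences were -0.34 ± 0.36 for Gjb6, -0.40 ± 0.37 for Gjb5, -0.13 ± 0.54 for Gjb2 and -0.29 ± 0.27 for Gja1, again with none called, beside 0.41% of all genes. No member had Ivl values that all lay outside the K5/K14 values, as 0.656% of genes did.

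K5 and K14 tumours differed by 0.05 ± 0.26 in Gja1, 0.00 ± 0.58 in Gjb2, 0.18 ± 0.34 in Gjb5 and 0.03 ± 0.45 in Gjb6 (log2), with adjusted p of at least 0.995 (edgeR). A difference of 1 log2 unit in Gjb2 would lie within 2 of these standard errors. Across all genes 0.0% were called by edgeR, while 1945 had an unadjusted p under 0.05 and DESeq2 called 174. Within the 15 libraries none of the members was called and 0.0532% of genes were.

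**Figure D2:**
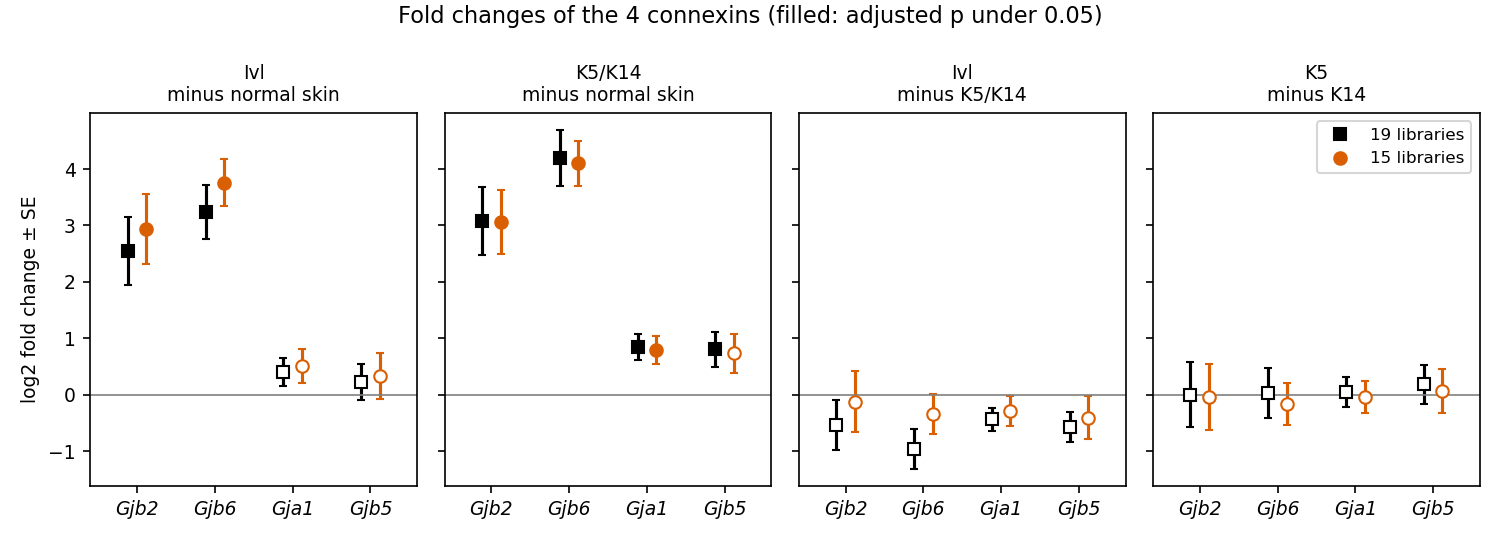
Log2 fold change with its standard error for each connexin in the 4 comparisons, from all 19 libraries (squares) and from the 15 libraries outside Ivl 1, 2, 3 and K5 1 (circles), filled where the adjusted p is under 0.05. Gjb2 and Gjb6 are filled against skin in both tumour groups, Gjb5 against skin in K5/K14 tumours is filled only for the 19 libraries, and no symbol is filled between tumour groups.

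To set the genes beside one another, each level was divided by the length of the principal transcript (CPM per kb). In normal skin the order was Gja1 (184.6 ± 99.2, SD, n = 4), Gjb2 (112.9 ± 95.9), Gjb6 (15.4 ± 8.91) and Gjb5 (11.3 ± 2.09). In Ivl tumours it was Gjb2 (658.5 ± 340.3, n = 6), Gja1 (244.6 ± 30.4), Gjb6 (145.2 ± 75.5) and Gjb5 (13.3 ± 1.77). In K5/K14 tumours it was Gjb2 (955.7 ± 297.0, n = 9), Gja1 (331.4 ± 58.2), Gjb6 (282.6 ± 96.9) and Gjb5 (19.7 ± 10.4). Gjb6 and Gjb5 overlapped in skin, and Gja1 and Gjb6 overlapped in both tumour groups. Gjb2 and Gja1 overlapped in skin and in Ivl tumours but not in K5/K14 tumours, and Gjb5 lay below the other members in every tumour.

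As shares of the summed level per length of the 17 connexin genes in the table, Gja1 made up 47.6% ± 5.35 of skin connexin RNA, 24.1% ± 9.96 in Ivl and 19.9% ± 3.44 in K5/K14 tumours (SD). Gjb2 made up 24.8% ± 13.2 in skin, 53.0% ± 12.8 in Ivl and 55.2% ± 5.89 in K5/K14 tumours, and Gjb6 3.85% ± 0.354, 12.2% ± 3.30 and 16.3% ± 2.85. The summed level per length of all connexins was 387.6 ± 194.2 CPM per kb in skin, 1160 ± 434.6 in Ivl and 1704 ± 389.3 in K5/K14 tumours. Gjb2 exceeded Gja1 in every tumour except Ivl 1 and in no skin library, with a Gjb2 to Gja1 ratio of 0.152 to 0.836 in skin, 0.819 to 3.88 in Ivl and 1.85 to 4.002 in K5/K14 tumours. The order of these 2 depends on the length used for Gja1. The union of its annotated exons (10257 bases against 3071 for the principal transcript) gave Gja1 22.5%, 9.41% and 7.30% of the pool in skin, Ivl and K5/K14 tumours, and put Gjb2 at 38.4% in skin, above Gja1.

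**Figure D3:**
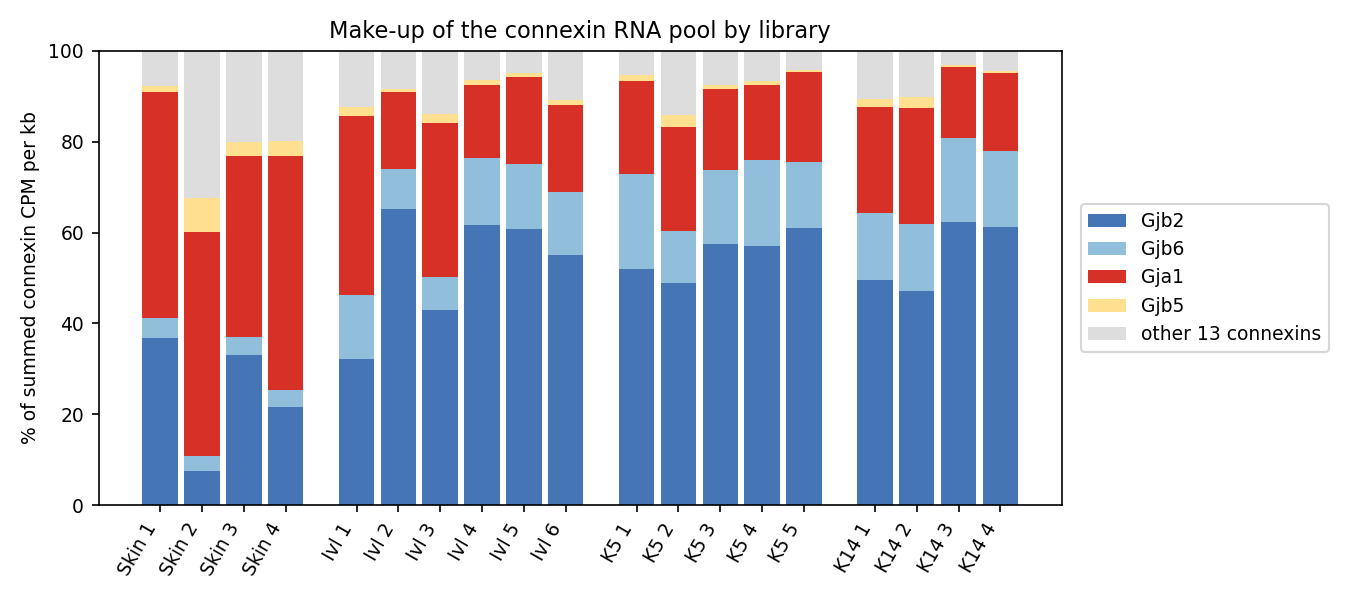
Share of each connexin in the summed CPM per kb of all 17 connexin genes, 1 bar per library, with principal transcript lengths. Gja1 holds 39.7% to 51.5% of the bar in skin libraries and 15.6% to 39.4% in tumours, where Gjb2 holds 32.2% to 65.2%.

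Most keratinocyte genes were also higher in tumours. All 6 genes of the epithelial list (Cdh1, Perp, Dsp, Pkp1, Sfn and Krtdap) rose in both tumour groups, where 20.4% (Ivl) and 23.2% (K5/K14) of all genes were called higher. Of 7 basal keratinocyte genes 4 rose in Ivl tumours, and in K5/K14 tumours 6 rose and Krt15 fell (-2.73 ± 0.57, edgeR, adjusted p = 0.000686). Of 8 genes of differentiated keratinocytes 7 rose in each tumour group, and Krt2, a keratin of the upper epidermis, fell in K5/K14 tumours (-2.42 ± 0.89, edgeR, adjusted p = 0.0244). For the epithelial list the summed level was 5002 to 6319 CPM in skin, 8385 to 22850 in Ivl and 15030 to 26920 in K5/K14 tumours. The lowest CPM of any of these 6 genes in any library was 187, so the labelled tissue held epithelium throughout. Skeletal muscle genes summed to 2949 to 12970 CPM in skin and to 5.13 to 6313 CPM in tumours. The part of such shifts in the make-up of the tissue was not tested.

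Each member was therefore also expressed as a log2 ratio to the mean log2 CPM of the 6 epithelial genes in the same library. On that scale Gjb6 was 1.56 higher in Ivl and 2.44 higher in K5/K14 tumours than in skin, with all 9 K5/K14 tumours above all skin libraries. Gjb2 was 1.24 and 1.75 higher, with overlap. Gja1 was 1.12 and 0.90 lower, with overlap in both tumour groups. Gjb5 was 1.42 and 1.21 lower, with the Ivl tumours all below skin. Within the 15 libraries the differences in Ivl and K5/K14 tumours were 1.97 and 2.33 for Gjb6, 1.55 and 1.70 for Gjb2, -1.32 and -0.96 for Gja1, and -1.63 and -1.31 for Gjb5. There Gjb6 lay wholly above skin in both tumour groups, and Gja1 and Gjb5 lay wholly below skin in Ivl tumours. Against the basal keratinocyte list in place of the epithelial one the differences kept their signs: 2.13 and 3.04 for Gjb6, 1.81 and 2.36 for Gjb2, -0.55 and -0.29 for Gja1, and -0.86 and -0.60 for Gjb5. The signs were the same within the 15 libraries. Skin ratios to the basal list had an SD of 1.23 for Gja1 and 2.27 for Gjb2. These ratios are a description, and no test was run on them. The share of all genes without overlap on this scale was not counted.

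Gja1 is also made by fibroblasts, whose 7 marker genes (Col1a1, Col1a2, Col3a1, Pdgfra, Dpt, Lum and Dcn) were all detected in every library. Their summed level was 838.8 to 18450 CPM in skin, 1483 to 10870 in Ivl and 3795 to 15020 in K5/K14 tumours. Skin library 2, with the lowest Gja1, had the lowest fibroblast sum, while skin library 1, with the highest Gja1 of the skin samples, had 3310 CPM. The part of fibroblasts in the Gja1 values was not tested.

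Over the tumours, the neighbours Gjb2 and Gjb6 varied together. Gjb2 and Gjb6 had a Pearson r of 0.87 over the 15 tumours (log2 CPM) and 0.91 over the 11 outside the batch-trace set. Other genes were more like each of them. Of 14945 genes ranked by r over the 15 tumours, Gjb6 had rank 45 for Gjb2, and Gjb2 had rank 108 for Gjb6. Over the 11 tumours these ranks were 56 and 37. For Gjb5, on chromosome 4, the values depended on the libraries: with Gjb2 it gave -0.02 over 15 tumours and -0.68 over 11, and with Gjb6 it gave 0.06 and -0.71. Gja1, on chromosome 10, gave 0.63 and 0.50 with Gjb2 and 0.70 and 0.42 with Gjb6. Gjb1, a further connexin on chromosome X, gave 0.54 and 0.50 with Gjb2 and 0.735 and 0.575 with Gjb6. No correlation over the tumours is given for Gja3, a lens connexin on chromosome 14 near Gjb2. Against skin, a different measure, Gja3 fell in K5/K14 tumours, a call lost without skin library 1, and was not called in Ivl tumours. The tumours share the batch adjustment and differ in their epithelial content, and these correlations are given without a test.

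**Figure D4:**
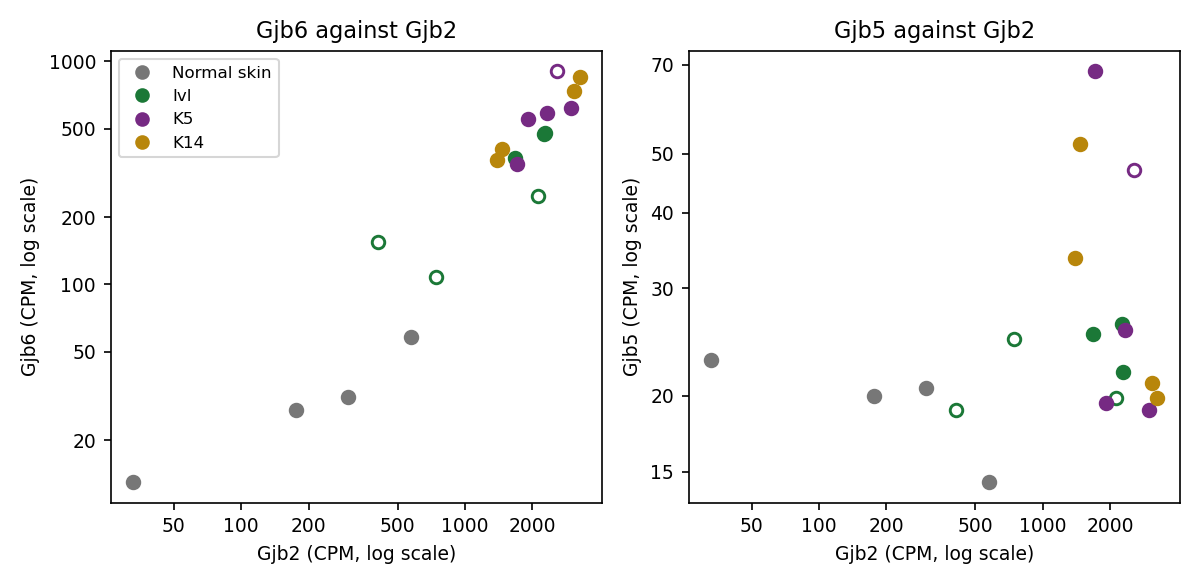
Levels of Gjb6 and of Gjb5, each against Gjb2, in CPM on log axes, 1 point per library coloured by group, open for Ivl 1, 2, 3 and K5 1. Gjb6 follows Gjb2 from skin to tumours, Gjb5 is highest in K5 2, and the tumours with the highest Gjb2 have Gjb5 levels inside the skin range.

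Among the other genes with at least 1 CPM on average over the tumours (14946 genes in all), the following were among those most like each member over the 15 tumours. For Gjb2 they were Cotl1 (r = 0.97), a binder of actin filaments, and the cornified envelope genes Sprr2h (0.96) and Sprr2g (0.94), with 0.87, 0.97 and 0.84 over the 11 tumours outside the batch-trace set. For Gjb6 they were Bfsp1 (0.97), an intermediate filament gene of the lens, Fer1l4 (0.96) and Adm2 (0.96), an adrenomedullin-family hormone, with 0.87, 0.86 and 0.95. For Gja1 they were Ralgds (0.89), an activator of Ral GTPases, and Il13ra1 (0.87), an interleukin receptor chain, with 0.88 and 0.87. For Gjb5 they were Tssk4 (0.89), Dgcr6 (0.86) and Sphk1 (0.86), a sphingosine kinase, with 0.92, 0.94 and 0.88. No gene was named for more than 1 member.

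Of 13 further connexin genes reported here, 10 were in the table and 9 were tested. In Ivl tumours 2 rose against skin (Gjb1 and Gjd3) and none fell, beside 20.4% of all genes called higher and 15.5% called lower. In K5/K14 tumours 3 rose (Gjb1, Gjd3 and Gja4) and 3 fell (Gja3, Gja6 and Gjc3), beside 23.2% called higher and 38.9% called lower. Within the 15 libraries 2 rose and 2 fell (Gja6 and Gjc3) in Ivl tumours, beside 22.2% of genes called higher and 32.7% called lower. In K5/K14 tumours 3 rose and 3 fell within the 15, beside 23.9% called higher and 42.3% called lower. Their median log2 difference from skin was -0.10 in Ivl tumours, with the other sign (0.59) within the 15 libraries, and 0.25 in K5/K14 tumours (0.24 within the 15). None of the 9 differed between Ivl and K5/K14 or between K5 and K14 tumours by the test.

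Gjb1, the main connexin of liver and of myelinating Schwann cells, rose from 0.386 ± 0.109 CPM in skin to 2.34 ± 1.505 in Ivl and 3.498 ± 1.398 in K5/K14 tumours, by 2.59 ± 0.52 and 3.17 ± 0.52 on the log2 scale (edgeR, adjusted p = 0.000638 and 5.7e-05). Gja4, an endothelial connexin, was at 3.603 ± 1.37, 6.41 ± 3.01 and 11.1 ± 5.45 CPM and rose in K5/K14 tumours (1.62 ± 0.41, adjusted p = 0.0023). Of 7 endothelial marker genes, 2 rose and none fell in K5/K14 tumours (Emcn and Tie1, list median 0.73 log2), where 23.2% of all genes were called higher. In Ivl tumours 1 of the 7 rose and none fell (list median -0.04 log2), where 20.4% of all genes were called higher. The summed level of these markers was 56.4 to 393.6 CPM in skin, 98.8 to 385.6 in Ivl and 203.3 to 463.8 in K5/K14 tumours. The part of endothelial cells in the Gja4 values was not tested. Gja3 averaged 2.77 ± 2.66 CPM in skin and 0.512 ± 0.511 in K5/K14 tumours (-2.43 ± 0.86, adjusted p = 0.0204), a call lost without skin library 1 (-1.603, adjusted p = 0.142). Gjc3, a glial connexin, averaged 1.54 ± 0.251 CPM in skin and 0.108 ± 0.130 in K5/K14 tumours (-3.80 ± 0.75, adjusted p = 0.000329). Of 4 Schwann cell marker genes, 3 fell and none rose in K5/K14 tumours (list median -2.61 log2), where 38.9% of all genes were called lower. The part of Schwann cells in the Gjc3 values was not tested. The K5/K14 calls of Gjb1, Gja4, Gja3 and Gjc3 held within the 15 libraries, at 3.13, 1.64, -2.27 and -3.74. Gja5 averaged 2.56 CPM in skin, 3.42 in Ivl and 3.04 in K5/K14 tumours, and Gjc1 averaged 5.50, 4.24 and 10.03 CPM. Within the 15 libraries Gjc1 ran from 1.57 to 4.025 CPM in Ivl and from 6.23 to 14.47 CPM in K5/K14 tumours. Over all 19 libraries these groups overlapped. The share of all genes that separate them within the 15 libraries was not counted, so this gap cannot be judged. Neither Gja5 nor Gjc1 passed a test.

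**Figure D5:**
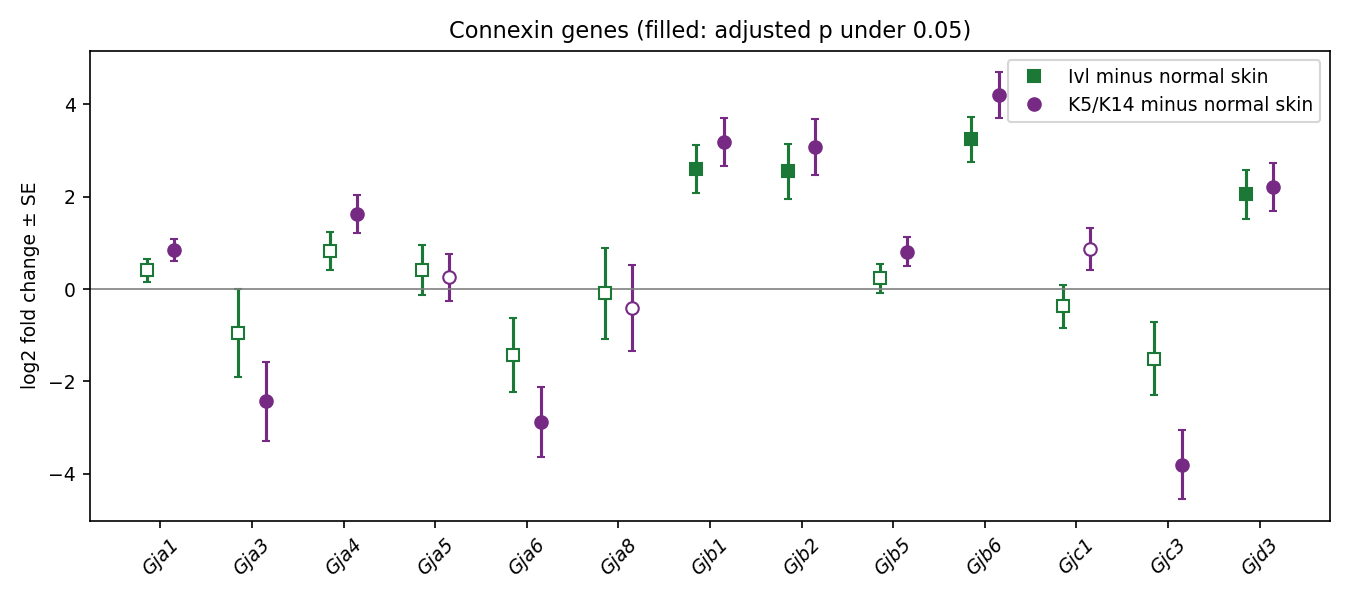
Log2 fold change with its standard error against normal skin for the 4 members and the 9 further connexin genes tested, in Ivl tumours (squares) and K5/K14 tumours (circles), filled where the adjusted p is under 0.05. Gjb6 has the highest value in both comparisons, and Gja3, Gja6 and Gjc3 are filled below 0 in K5/K14 tumours.

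Of the 3 pannexins, which form channels resembling hemichannels but no gap junctions, Panx1 rose from 16.5 ± 1.29 CPM in skin to 22.1 ± 1.86 in Ivl (0.42 ± 0.11 log2, edgeR, adjusted p = 0.00724) and 25.1 ± 2.57 in K5/K14 tumours (0.60 ± 0.11, adjusted p = 0.000131), the Ivl call being lost when only Ivl and skin libraries entered the fit (0.36 ± 0.13, adjusted p = 0.0634). Panx3 fell in K5/K14 tumours, from 15.8 ± 10.9 to 1.198 ± 1.96 CPM (-3.72 ± 1.31, adjusted p = 0.0211), a call lost without skin library 2 (-3.12, adjusted p = 0.0679). Both Panx1 calls and that of Panx3 held within the 15 libraries (0.45, 0.61 and -3.55). Panx2 passed no test.

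Genes that anchor connexins or act in their phosphorylation and degradation moved in both directions. Of 17 tested, 6 rose and 1 fell in Ivl tumours and 7 rose and 3 fell in K5/K14 tumours against skin, with median log2 differences of 0.08 and 0.38. The 15 libraries gave 6 that rose and 4 that fell in Ivl tumours, while 7 rose and 4 fell in K5/K14 tumours. Over all genes 20.4% were called higher and 15.5% lower in Ivl tumours and 23.2% and 38.9% in K5/K14 tumours, with 22.2% and 32.7%, and 23.9% and 42.3%, within the 15 libraries. In K5/K14 tumours Csnk1d, a kinase of Gja1, rose by 0.99 ± 0.10 (edgeR, adjusted p = 1.51e-06) and Tsg101, of the endosomal sorting machinery, by 1.28 ± 0.14 (adjusted p = 1.84e-06). Prkca, a protein kinase C, fell by 0.67 ± 0.19 (adjusted p = 0.00485), and Wwp1, a ubiquitin ligase, fell by 0.46 ± 0.17 (adjusted p = 0.0221). None of the 17 was called between Ivl and K5/K14 tumours, where the smallest adjusted p was 0.0569, for Csnk1d (-0.32 ± 0.09). Src and Wwp1 differed by -0.44 ± 0.16 and 0.36 ± 0.15 (adjusted p = 0.129 and 0.170).

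Of 15 genes of adherens and tight junctions, the other contacts of the same membrane, 8 rose and none fell in Ivl tumours and 9 rose and 3 fell in K5/K14 tumours, with median log2 differences of 0.70 and 0.95, to be read against the same shares of all genes. From the 15 libraries 8 rose and 1 fell (Afdn) in Ivl tumours and the counts in K5/K14 tumours were again 9 and 3. In K5/K14 tumours F11r, a tight junction adhesion molecule, rose by 1.605 ± 0.14 (edgeR, adjusted p = 8.07e-07) and Ctnna1 rose by 0.95 ± 0.12 (adjusted p = 4.9e-06). Ocln (occludin) fell by 1.72 ± 0.27 (adjusted p = 3.33e-05) and Afdn (afadin) fell by 0.80 ± 0.16 (adjusted p = 0.000319). Ocln was the gene of the 2 junction lists that passed the test between the tumour groups, at 1.596 ± 0.24 higher in Ivl than in K5/K14 tumours (adjusted p = 0.00374) and 1.59 ± 0.21 higher within the 15 libraries (adjusted p = 0.0042).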

How the data were processed

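Bulk poly(A) RNA sequencing of 15 tumours and 4 skin samples was analysed. According to the labels and methods, the authors trimmed reads with TrimGalore, aligned them with HISAT2 2.1.0 to GRCm38, counted genes with featureCounts (Subread 1.6.3) and adjusted the table for batch with ComBat-seq, so the deposited values are estimated counts, already whole numbers. Whether strand was used in counting is not given in the sources used here. Of 34807 gene identifiers 34694 matched GENCODE M21 (GRCm38) and 113 did not. Genes that reached 5 counts in 1 or more libraries were tested by the quasi-likelihood F test of edgeR 4.0.16 after TMM scaling (R 4.3.3, robust, two-sided), with Benjamini-Hochberg adjustment over all genes, and an adjusted p under 0.05 counted as called. DESeq2 1.42.0 was an alternative, and the study itself used DESeq2. All 19 libraries entered each fit, in 3 groups, or in 4 groups for K5 against K14. Standard errors were derived from the fold change and F, and cover no error of the batch adjustment. Correlations used log2 CPM with a prior count of 2.

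The test was run on simulated counts first. Of 37 pairs of libraries within groups, none agreed within sampling noise (lowest chi-square per degree of freedom 25.9). The members and lists were chosen with earlier results of these data known. Named genes were the 4 members, other connexins and pannexins with a mean over 1 CPM in any group, the 2 most significant genes in each direction of each junction list, and the 3 genes most correlated with each member. Some genes that this rule selects are not reported here, although the sum over the connexins includes every one in the table. Gja6 and Gjd3, below 1 CPM, were named after their calls were seen, because the counts they belong to are small. Sequences came from RefSeq (GRCm38.p6), in which all 4 members matched. Protein sequences were not used here. The labels give ages of 7 to 20 weeks at induction.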

Additional observations from a re-analysis of the deposited data

Results flagged for a closer look

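The 12 genes among the members, the other connexins and the pannexins that averaged over 1 CPM in any group were screened for a library far from the rest of its group, in 60 groups of 4 to 9 libraries, where chance alone flags about 5% of groups. No member was flagged, and 8 results of other genes were, each because 1 library stood apart from the others of its group. K14 1 was the highest library for Gja3 (1.73 CPM, among the K5/K14 tumours), for Gjc3 (0.382 CPM, among the K14 tumours) and for Panx3 (5.77 CPM, among the K14 and among the K5/K14 tumours). K5 4 was the highest K5/K14 tumour for Gja4 (23.4 CPM) and K14 4 for Gjb1 (6.74 CPM). K5 5 was the lowest for Panx1 (19.1 CPM, among the K5 and among the K5/K14 tumours).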

How the results depend on the processing

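Against skin, the calls of Gjb2 and Gjb6 in both tumour groups and of Gja1 in K5/K14 tumours held under every alternative run: DESeq2, its size factors, no filter or filterByExpr, only the groups compared, the 15 libraries, the batch-trace set as a covariate, the replicate block, and each of 19 fits leaving out 1 library. Every run scaled the libraries by TMM or by size factors, and none used total counts alone. These runs therefore do not show whether the Gja1 call would hold without such scaling. As a ratio to the epithelial genes, Gja1 differed by -0.90 log2 between K5/K14 tumours and skin. Leaving out 1 library gave Gja1 in Ivl tumours 0.16 to 0.81, called only without skin library 1. Gjb5 in K5/K14 tumours was not called with size factors (0.70, adjusted p = 0.0557), filterByExpr (0.67, adjusted p = 0.0635), only the groups compared (0.81, adjusted p = 0.0615) or the 15 libraries (0.73, adjusted p = 0.0694), and ran from 0.61 to 0.90 leaving out 1 library. The cause was not tested. Between K5 and K14 tumours, values near 0 changed sign: Gja1 to -0.056 with the replicate block and -0.039 in the 15 libraries, Gjb6 to -0.11 and -0.16, and Gjb2 to 0.13 with the covariate. Leaving out 1 library gave -0.039 to 0.16 for Gja1, -0.17 to 0.21 for Gjb2, -0.19 to 0.53 for Gjb5 and -0.16 to 0.26 for Gjb6.

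Genes called in Ivl against skin rose from 11515 to 17566 in the 15 libraries. In Ivl against K5/K14 tumours they were 756, with 2161 by DESeq2, 46 with the replicate block, 449 with the covariate, 131 in the 15 libraries, and 127 (without K5 1) to 1328 (without K14 1) leaving out 1 library. In K5 against K14 they were 0, with 174 by DESeq2, 2 with only those groups and 17 in the 15 libraries. Replicate numbers of the labels did not pair the samples (r of 25 same-numbered pairs from -0.33 to 0.21, 9 above 0.1), and the replicate block changed no call of a member, while Gja3 and Panx3 in K5/K14 tumours lost their calls against skin with it (adjusted p = 0.0619 and 0.052). The union of exons in place of the principal transcript, chosen after seeing the data, moved the shares of the connexin pool as given above.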
